A study of Brassica napus with 22 samples.

Results

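Napins and cruciferins are the main storage proteins of the oilseed rape (Brassica napus) seed, and 26 of the 101040 genes in the deposited table were copies of them. A copy was taken as a member when its best Arabidopsis protein match, as given by the authors, was one of 8 loci: SESA1 (AT4G27140), SESA2 (AT4G27150), SESA3 (AT4G27160), SESA4 (AT4G27170) and SESA5 (AT5G54740), which encode napins (2S albumins), and CRA1 (AT5G44120), CRB (AT1G03880) and CRC (AT4G28520), which encode cruciferins (globulins). No copy matched SESA2 or SESA5, so the members fell under 6 loci, with 17 napin copies (5 of SESA1, 3 of SESA3 and 9 of SESA4) and 9 cruciferin copies (4 of CRA1, 2 of CRB and 3 of CRC). Best matches among the neighbouring SESA loci rest on small sequence differences, so the locus names sort the napin copies without settling which Arabidopsis gene each descends from.

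Seeds of cultivar Topas, grown under long days, were taken at the globular stage, when the embryo is round and has formed no cotyledons. Filial tissue was represented by the embryo proper (2 libraries) and by endosperm taken from the micropylar (4), chalazal (3) and peripheral (2) regions. The maternal side had 3 libraries of chalazal proliferating tissue, 3 of inner seed coat and 2 of outer seed coat, and 3 libraries came from whole seeds. All groups share the cultivar and the stage, and nothing in the labels says how many plants or seeds went into a library. The table holds 1 combined column per group, in FPKM (fragments mapped, scaled to transcript length and to library size) rounded to whole numbers, so no spread between libraries could be computed, and differences carry no test. The number of fragments behind a value is unknown, and the RNA of a dissected region does not tell fewer cells of a type from less transcript per cell.

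In the seed, napins and cruciferins are made on the endoplasmic reticulum, sorted to protein storage vacuoles and cut there by vacuolar processing enzymes, to be broken down as a source of nitrogen and sulfur at germination. In Arabidopsis their genes are switched on mainly in the maturing embryo, under the transcription factors LEC1, LEC2, FUS3 and ABI3 together with partner bZIP factors, and a weaker activity in endosperm is also known. The globular stage precedes that maturation phase.

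Transcripts of both families were most abundant in the micropylar endosperm, the region that surrounds the embryo. Summed over copies, napin was listed at 1598 FPKM there, beside 169 for the chalazal endosperm, 74 for the embryo proper, 38 for outer seed coat and 19 for peripheral endosperm. The inner seed coat held 2 FPKM of napin and the chalazal proliferating tissue 1. Cruciferin was at 868 FPKM in the micropylar endosperm, beside 98 for the chalazal endosperm, 39 for the embryo proper, 21 for the peripheral endosperm and 10 for the outer seed coat, and was listed at 0 for both remaining maternal tissues. Both families therefore ran in the same order over the first 3 compartments and differed in the place of the peripheral endosperm and the outer seed coat.

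The micropylar sum was 9.46 times the chalazal sum for napin and 8.86 times for cruciferin. Against the embryo proper these ratios were 21.6 and 22.3, and against the peripheral endosperm 84.1 and 41.3. Rounding alone lets the peripheral napin sum lie between 13.5 and 27.5 FPKM and the cruciferin sum between 17.5 and 25.5, so the low end of the order is coarse. Together the 26 copies held 0.159% of all FPKM of the micropylar column, 0.0117% of the chalazal endosperm column and 0.0115% of the embryo column. With ribosomal RNA and organelle genes left out, which took 36.9% of the micropylar column and 16.0% of the embryo column, the shares were 0.252%, 0.0122% and 0.0137%. The chalazal endosperm and the embryo proper thus held similar shares, and which of them came second depended on the scale. With columns scaled to a common sum without those genes, napin was at 87.8 in chalazal endosperm against 102.2 in the embryo, and cruciferin at 50.9 against 53.8.

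**Figure D1:**
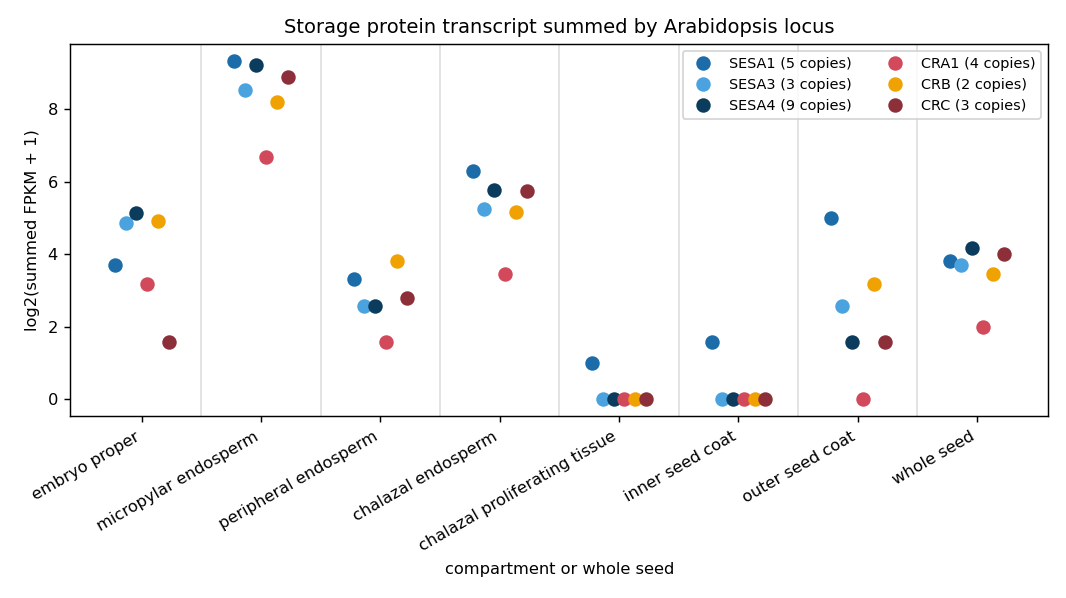
Summed transcript level of each Arabidopsis locus, as log2(summed FPKM + 1) on the vertical axis, in the 7 compartments and the whole seed on the horizontal axis. Each point is the sum over the copies of 1 locus in 1 combined column, without error bars because no single libraries are given. The 6 loci stand highest in the micropylar endosperm and next highest in the chalazal endosperm, and SESA1 is at 31 FPKM in the outer seed coat, where the other loci are at 8 or less.

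Of the 26 copies, 23 had their largest compartment value in the micropylar endosperm, 1 had it in the embryo proper and 2 were listed at 0 in each compartment. A filter of 1 FPKM or more in 2 or more of the 8 columns kept 54278 genes, of which 15.5% were highest in the micropylar endosperm alone and 18.8% in the embryo proper alone, with ties left out. Among the 41502 that also reached 5 FPKM in a compartment, 18.4% were highest in the micropylar endosperm alone. The filter of 1 FPKM kept 22 of the 26 members. The SESA4 copies BnaA03g48460D and BnaC08g12450D did not pass, because they were listed at 26 and 21 FPKM in the micropylar endosperm and at 0 in the other columns. The others, the SESA4 copy BnaA08g14120D and the CRA1 copy BnaCnng58970D, were listed at 0 throughout and have short gene models of 363 and 357 bases.

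To compare compartments, the mean of log2(FPKM + 1) in the other compartments was subtracted from the value in one of them, and a copy was counted as higher or lower when the difference reached 1 (2-fold) and the higher side averaged at least 5 FPKM. This rule of size carries no error rate. Against the other 6 compartments, 22 of the 22 copies that passed the filter were higher in the micropylar endosperm and 0 lower, beside 19.4% of all genes higher and 18.2% lower. The median difference of these copies was 5.17 log2, with a range from 2.72 to 6.69, beside a median of -0.46 over all genes. A copy high in a single column passes the filter partly through that column, so the count describes the copies and does not test them.

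In the chalazal endosperm 13 copies were higher, 1 lower and 8 neither, beside 13.6% of all genes higher and 15.5% lower. In the embryo proper 8 copies were higher, 5 lower and 9 neither, beside 20.1% and 17.2%. The order of these compartments depended on the scale: with columns scaled to a common sum, the chalazal endosperm had 7 copies higher and 2 lower, and the embryo 10 higher and 5 lower. There 21 copies passed the filter. Shares of all genes are not given for that scale or for other alternative settings, so these counts have no background beside them. In the peripheral endosperm 0 were higher and 6 lower, beside 13.7% and 11.4%, with a median of -0.74. The chalazal proliferating tissue and the inner seed coat each had 17 copies lower and 0 higher, where 11.2% and 6.99% of all genes were lower and 16.5% and 15.4% higher. In the outer seed coat 1 copy was higher and 11 were lower, beside 14.8% and 10.4%, and 3 and 11 on the common-sum scale. Without the micropylar column 7 copies in place of 17 were lower in each of chalazal proliferating tissue and inner seed coat, and 4 in place of 11 in the outer seed coat. The peripheral endosperm then had 0 in place of 6 lower and 1 higher, and the embryo proper 2 in place of 5 lower and 9 higher.

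Between the filial and maternal sides, 18 copies were higher on the filial side, 0 lower and 4 neither, beside 10.1% of all genes higher and 16.9% lower. Without the micropylar endosperm 12 copies were higher and 0 lower, with no shares of all genes given for that setting. Taken in pairs, the micropylar endosperm was at least 2-fold above the chalazal endosperm for 22 of the 22 copies, beside 20.8% of all genes (18.3% were lower). It was above the embryo proper for 21, beside 19.3% (21.2% lower), and above the peripheral endosperm for 22, beside 19.3% (19.2% lower). The exception in the pair with the embryo was the SESA4 copy BnaC01g19320D. The chalazal endosperm was above the peripheral endosperm for 15 copies and below it for 0, beside 8.58% and 11.4% of all genes, and above the embryo proper for 8 and below it for 2, beside 17.1% and 22.4%. That last split turned to 5 and 7 of 21 copies on the common-sum scale, for which no shares of all genes are given. The embryo proper was above the peripheral endosperm for 8 copies and below it for 1, beside 19.7% and 16.6%.

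**Figure D2:**
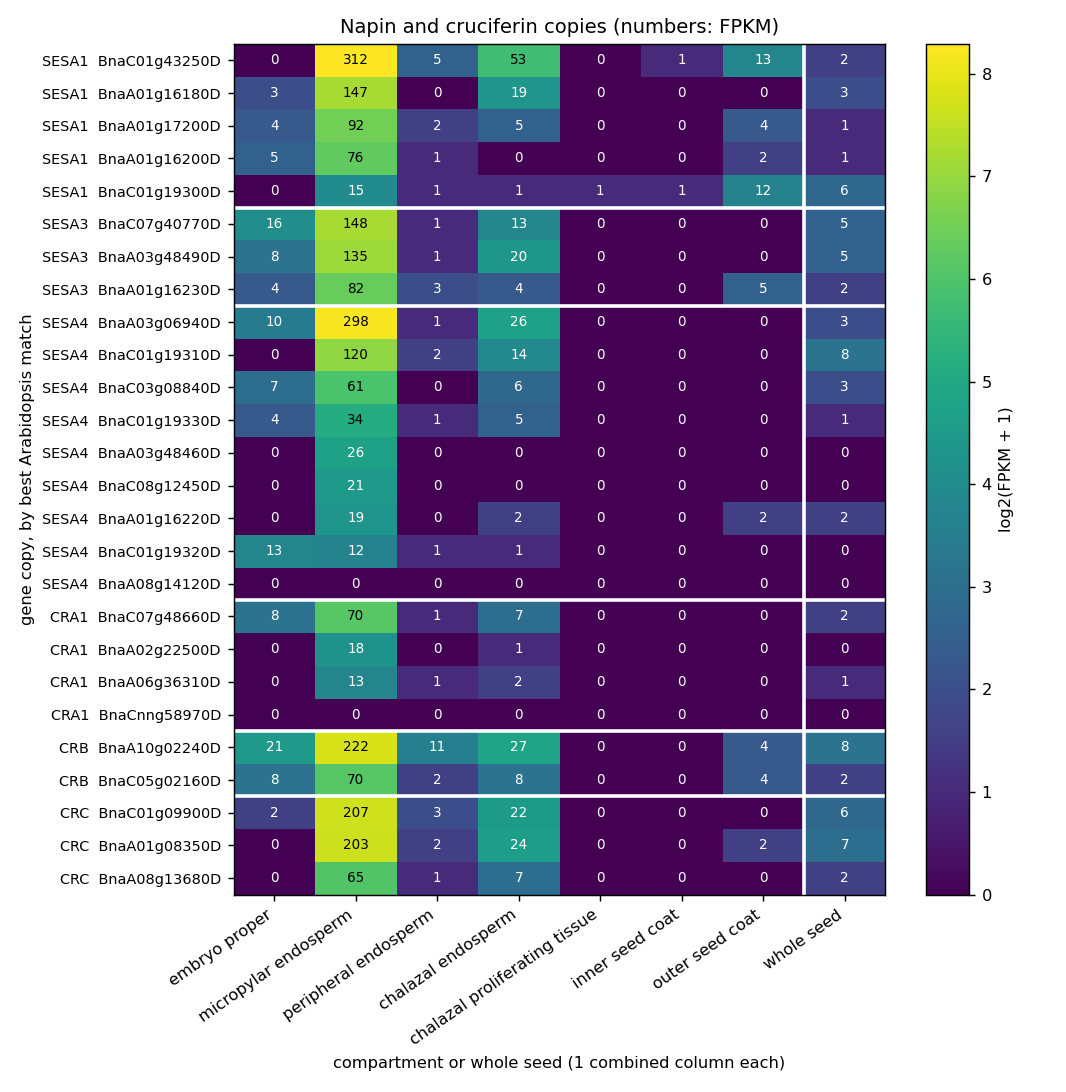
FPKM of each of the 26 copies, grouped by best Arabidopsis match, in the 7 compartments and the whole seed, with color giving log2(FPKM + 1) and the printed number the deposited FPKM. The micropylar column is brightest for 23 copies, the chalazal endosperm and embryo columns are intermediate, and the columns of chalazal proliferating tissue and of inner seed coat hold 0 for all but 1 and 2 copies.

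The napin copies differed widely in level. The highest was the SESA1 copy BnaC01g43250D, on an unplaced piece of chromosome C01 (C01 random, 2751283 to 2751825), with 312 FPKM in the micropylar, 53 in the chalazal and 5 in the peripheral endosperm. Its outer seed coat value was 13 and its inner seed coat value 1, it was at 2 in whole seed, and it was listed at 0 for embryo and chalazal proliferating tissue. It ranked 332 among all genes of the micropylar column. Next came the SESA4 copy BnaA03g06940D (A03, 3072742 to 3073302), with 298 FPKM in the micropylar, 26 in the chalazal and 1 in the peripheral endosperm, 10 in the embryo proper, 3 in whole seed and 0 in the maternal compartments. These copies were close in the micropylar endosperm and apart in the embryo proper, where the first was at 0.

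Of the SESA1 copies, BnaA01g16180D (A01, 8271738 to 8272474) had 147 FPKM in the micropylar and 19 in the chalazal endosperm, 3 in the embryo proper, 3 in whole seed and 0 elsewhere. BnaA01g17200D (A01, 9041840 to 9042582) had 92, 5 and 4 FPKM in the first 3 of these, 2 in the peripheral endosperm, 4 in the outer seed coat, 1 in whole seed and 0 in the other maternal tissues. A further SESA1 copy, BnaA01g16200D, stood out among the stronger copies for a chalazal endosperm value of 0 beside 76 FPKM in the micropylar endosperm and 5 in the embryo proper. The SESA1 copy BnaC01g19300D had a gene model of 1794 bases, where the other napin models reached 760 at most, and its values were spread more evenly, with 15 FPKM in the micropylar endosperm, 12 in the outer seed coat, 6 in whole seed and at most 1 elsewhere. It was the copy counted as higher in the outer seed coat.

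The SESA3 copies BnaC07g40770D (C07, 40912883 to 40913359) and BnaA03g48490D (A03, 24882893 to 24883369) both have a model of 477 bases. They had 148 and 135 FPKM in the micropylar, 13 and 20 in the chalazal and 1 and 1 in the peripheral endosperm. The embryo proper had 16 and 8 and whole seed 5 and 5, and both copies were at 0 in the maternal compartments. The third, BnaA01g16230D (A01, 8303680 to 8304402), had 82 FPKM in the micropylar endosperm, 4 in chalazal endosperm, 4 in embryo, 3 in peripheral endosperm, 5 in the outer seed coat and 2 in whole seed. SESA3 thus held its embryo level mostly in the C07 copy.

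Within SESA4, BnaC01g19310D (C01, 13360220 to 13360979) had 120 FPKM in the micropylar, 14 in the chalazal and 2 in the peripheral endosperm and 0 in embryo and maternal tissue, and its 8 FPKM in whole seed was the highest napin value there. BnaC03g08840D (C03, 4171938 to 4172498) had 61 FPKM in the micropylar and 6 in the chalazal endosperm, 7 in the embryo, 3 in whole seed and 0 elsewhere. BnaC01g19330D and BnaA01g16220D were weaker, at 34 and 19 FPKM in the micropylar endosperm and 5 and 2 in the chalazal endosperm. The SESA4 copy BnaC01g19320D had 13 FPKM in the embryo proper, 12 in the micropylar endosperm and at most 1 elsewhere, and was the copy with its largest value in the embryo. A gap of 1 FPKM is within what rounding allows.

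The cruciferins were led by the CRB copy BnaA10g02240D (A10, 1167754 to 1170793), with 222 FPKM in the micropylar, 27 in the chalazal and 11 in the peripheral endosperm. It had 21 FPKM in the embryo proper, 4 in the outer seed coat, 8 in whole seed and 0 in the remaining maternal tissues. The other CRB copy, BnaC05g02160D (C05, 1035352 to 1037933), had 70, 8 and 2 FPKM in the same endosperm regions, 8 in the embryo, 4 in the outer seed coat and 2 in whole seed. The A copy thus stood above the C copy in each compartment where the sum was above 0, except the outer seed coat, where they were equal.

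CRC was the most abundant cruciferin locus of the micropylar endosperm. Its copies BnaC01g09900D (C01, 5867929 to 5870050) and BnaA01g08350D (A01, 4008963 to 4011161) had 207 and 203 FPKM in the micropylar, 22 and 24 in the chalazal and 3 and 2 in the peripheral endosperm. In the embryo they were at 2 and 0, in the outer seed coat at 0 and 2 and in whole seed at 6 and 7. The third, BnaA08g13680D (A08, 11827517 to 11829927), had 65 FPKM in the micropylar, 7 in the chalazal and 1 in the peripheral endosperm, 0 in the embryo and 2 in whole seed. All CRC copies were thus near or at 0 in the embryo.

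CRA1 was weaker. BnaC07g48660D (C07 random, 1310056 to 1312662) had 70 FPKM in the micropylar, 7 in the chalazal and 1 in the peripheral endosperm, 8 in the embryo and 2 in whole seed. BnaA02g22500D (A02, 15040431 to 15042852) had 18 and 1 FPKM, and BnaA06g36310D (A06, 23813090 to 23815299) 13 and 2, in micropylar and chalazal endosperm, and both were at 0 in the embryo. CRA1 was listed at 0 in the 3 maternal tissues. Napin and cruciferin copies are similar within each family, and how the authors assigned fragments that match several copies is not stated, so values of single copies are less certain than their sums.

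Although the copies differed in level, their chalazal values tended to rise with their micropylar values. For the 16 copies at 50 FPKM or more in the micropylar endosperm, the chalazal value was 10.7% of the micropylar value at the median, with a range from 0% in BnaA01g16200D to 17.0% in BnaC01g43250D. By locus the chalazal sum was 12.1% of the micropylar sum for SESA1, 10.1% for SESA3, 9.14% for SESA4, 9.90% for CRA1, 12.0% for CRB and 11.2% for CRC. Oleosin loci, other seed reserve genes, were likewise low but not absent in the chalazal endosperm. They had 33 FPKM there against 400 in the micropylar endosperm (AT4G25140), 17 against 207 (AT3G27660), 6 against 48 (AT5G40420) and 9 against 44 (AT5G51210). Remaining reserve loci at 20 FPKM or more in the micropylar endosperm ran from 1 against 36 (EM6) to 9 against 53 (the cupin AT4G36700). The rest were at 3 FPKM or less there, and of these XERO1 was higher in the chalazal endosperm, at 5 against 3. Other genes at 50 FPKM or more in the micropylar endosperm, 3285 without ribosomal RNA and organelle genes, had a chalazal median of 39.8%. Among 419 other genes that were at least that high and at 20% or less of the micropylar value in each of the 5 remaining compartments, the chalazal median was 0%, with an interquartile range from 0% to 4.83%, against 10.7% and an interquartile range from 8.77% to 11.9% for the 16 copies. Across the 24 copies detected in a compartment, log2(FPKM + 1) in the 2 columns correlated with a Pearson coefficient of 0.86 and a Spearman coefficient of 0.86, as a description over copies that share a sequence family and the same libraries.

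The embryo proper did not follow the micropylar endosperm in this way. The embryo value of the same 16 copies was 4.61% of the micropylar value at the median, from 0% in 4 copies to 11.5% in BnaC03g08840D, and over the 24 detected copies the Pearson coefficient was 0.34 and the Spearman coefficient 0.31. For comparison, 440 other genes were as high in the micropylar endosperm and at 20% or less of it in the 5 compartments other than the embryo. Their embryo median was 0%, with an interquartile range from 0% to 8.25%, and 252 of them were at 0. The interquartile range of the 16 copies, from 0.725% to 9.80%, overlapped with it. By locus the embryo sum was 9.93% of the micropylar sum for CRB, 7.92% for CRA1, 7.67% for SESA3, 5.75% for SESA4, 1.87% for SESA1 and 0.421% for CRC. CRC, at 475 FPKM in the micropylar endosperm, was thus listed at 2 in the embryo proper, while CRB, at 292, was listed at 29 and made up most of the 39 FPKM of cruciferin there. With values this small, each embryo percentage rests on a few FPKM.

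**Figure D3:**
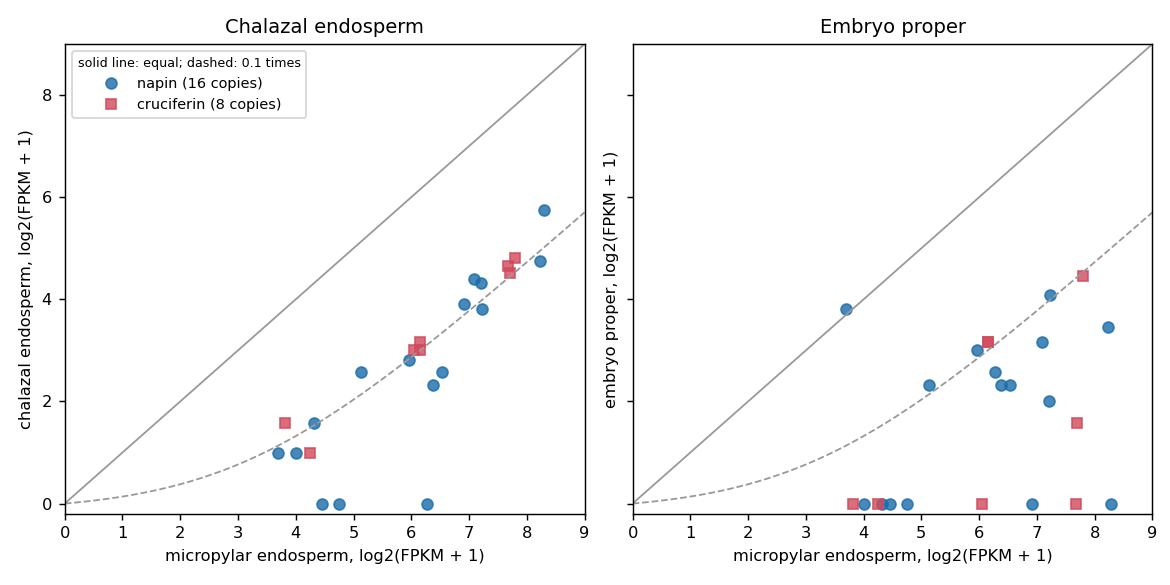
Each of the 24 detected copies by its micropylar level on the horizontal axis and its level in the chalazal endosperm (left) or the embryo proper (right) on the vertical axis, all as log2(FPKM + 1). The solid line marks equal levels and the dashed line 0.1 times the micropylar level: chalazal values gather along the dashed line, and embryo values scatter from 0 to about that line, with BnaC01g19320D on the solid line.

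The balance between the families was similar in the tissues where both were abundant. The ratio of summed napin to summed cruciferin FPKM was 1.84 for the micropylar and 1.72 for the chalazal endosperm and 1.90 for the embryo proper, and rounding alone allows 1.59 to 1.89 in the chalazal endosperm and 1.59 to 2.23 in the embryo. It was 0.905 for the peripheral endosperm, where rounding allows 0.529 to 1.57, 3.8 for outer seed coat and 1.5 for whole seed. Napin gene models are short, with a median of 561 bases against 1633 for cruciferin. When each value was weighted by gene length, which turns a level per length into a share of fragments, the ratio was 0.671 for the micropylar endosperm, 0.620 for the chalazal endosperm and 0.679 for the embryo, so that napin was ahead per transcript length and cruciferin by fragments.

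Brassica napus carries an A and a C subgenome, from Brassica rapa and Brassica oleracea. The napin members comprise 9 A and 8 C copies, and the A copies held 54.8% of napin FPKM in the micropylar endosperm (875 against 723), 45.0% of it in chalazal endosperm (76 against 93) and 45.9% of it in the embryo (34 against 40). Of cruciferin FPKM, the 5 A copies held 60.0% in the micropylar endosperm (521 against 347), 62.2% of it in chalazal endosperm (61 against 37) and 53.8% of it in the embryo (21 against 18). The shares rest on a few strong copies: without the most abundant copy of each locus the A share in the micropylar endosperm was 68.7% for napin and 81.0% for cruciferin. In the micropylar endosperm the 3 strongest napin copies held 47.4% of their family's sum and the 3 strongest cruciferin copies 72.8%.

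The napin genes lie partly in clusters, as in Arabidopsis, where SESA1 to SESA4 stand next to each other. On chromosome A01, 4 copies lie within 32665 bases (8271738 to 8304402), and on C01 another 4 lie within 25724 bases (13347621 to 13373344). A pair lies within 12535 bases on A03 (24870835 to 24883369). Levels within a cluster differed: on A01 the micropylar values in order along the chromosome were 147, 76, 19 and 82 FPKM, and on C01 they were 15, 120, 12 and 34.

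The genes beside the clusters are named with their levels for context. Both the A01 and the C01 cluster are preceded by a copy of the translation initiation factor gene AT4G27130, BnaA01g16170D with 69 FPKM in micropylar endosperm and 238 in chalazal proliferating tissue, and BnaC01g19290D with 211 and 254. On the far side stand copies of AT4G27180, BnaA01g16240D at 11 FPKM and BnaC01g19340D at 6 in the micropylar endosperm. On A01 BnaA01g16190D and BnaA01g16210D, which lie between napin copies, were listed at 0 in all columns. Beyond the A03 pair, BnaA03g48510D had 7 FPKM in the micropylar endosperm and at most 1 elsewhere. Of the 42 genes next to any member that are not themselves members, 33 were above 0 in a compartment, and 3 were highest in the micropylar endosperm alone. Among the 54278 genes that passed the filter, 15.5% were highest there alone. The neighbours were not filtered, so the count and the share rest on unlike sets of genes.

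**Figure D4:**
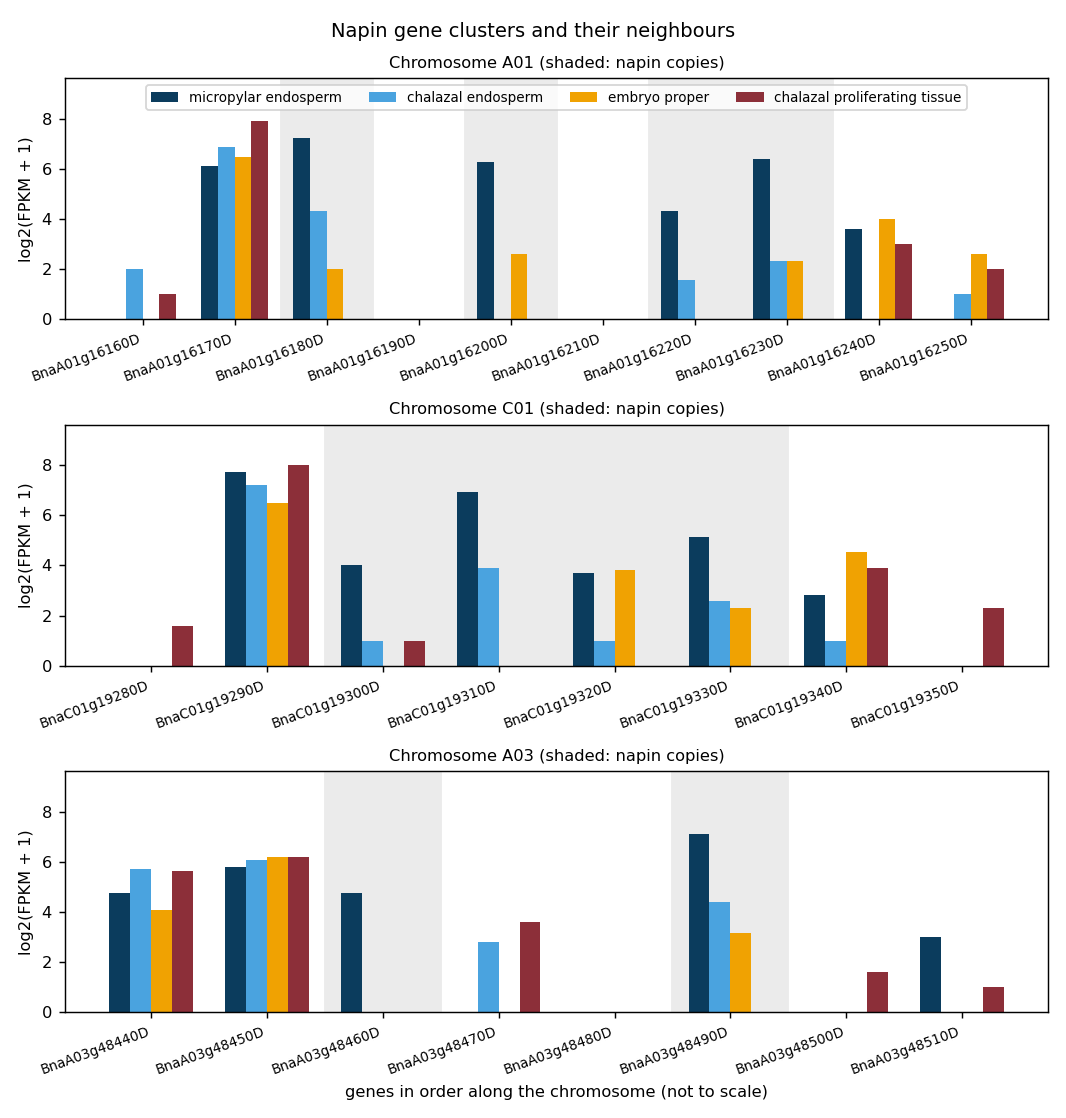
Genes in order along chromosomes A01, C01 and A03 around the napin clusters (shaded), with bars from 0 for log2(FPKM + 1) in the micropylar endosperm, chalazal endosperm, embryo proper and chalazal proliferating tissue. Napin copies show the micropylar bar highest, with BnaC01g19320D as the exception, while the flanking AT4G27130 copies are high in each of the 4 tissues shown.

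The whole seed, which contains all of these tissues, held 42 FPKM of napin and 28 of cruciferin, so the micropylar sums were 38.0 and 31 times as high. The heading of that column gives no unit, and ribosomal RNA and organelle genes made up 0.00762% of it against 36.9% of the micropylar column, so its scale may not be the same. For the 16 stronger copies the whole seed value was between 0.641% and 6.67% of the micropylar value, with a median of 2.88%. The highest whole seed values were 8 FPKM for the SESA4 copy BnaC01g19310D and 8 for the CRB copy BnaA10g02240D. BnaC01g43250D, the strongest copy of the micropylar endosperm, was at 2.

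Defining markers of the dissected tissues were read beside these values. Embryo markers (LEC1, WOX2 and WOX9) summed to 398 FPKM in the embryo proper and to between 0 and 35 in the other compartments. The 35 FPKM, in the micropylar endosperm, came from 1 of 5 LEC1 copies, with WOX2 and WOX9 at 0 there. General endosperm markers summed to 787, 1718 and 1440 FPKM in the micropylar, peripheral and chalazal endosperm and to at most 28 elsewhere. Different genes carried these sums. MINI3 was at 705, 617 and 101 FPKM in these regions, and AGL62 at 24, 1096 and 1339. IKU2 was listed at 0 in all columns, and FWA reached 4. The chalazal endosperm marker IPT8 was at 359 FPKM in its own region and listed at 0 for the micropylar endosperm. Inner seed coat markers summed to 1830 FPKM in chalazal proliferating tissue and 1149 in inner seed coat, against 24 in the micropylar endosperm. Most of this was TT16, at 1768, 1112 and 10 FPKM in these tissues, and TT12 was at 6, 36 and 0. BAN went the other way, at 56 FPKM in chalazal proliferating tissue, 1 in inner seed coat and 14 in micropylar endosperm. Outer seed coat markers summed to 141 in their own tissue and 56 in the micropylar endosperm. The 56 was MUM4, which went the other way, at 33 in the outer seed coat. GL2 and TTG2 were at 47 and 61 in the outer seed coat and at 0 in the micropylar endosperm. ZOU, a regulator of endosperm breakdown around the embryo, was at 58 FPKM in the micropylar endosperm, with 0 listed for chalazal endosperm and embryo. The part of material from other tissues in the storage protein values was not tested.

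Of 48 copies of activators of storage protein genes known from Arabidopsis, 31 passed the filter, of which 6 were higher in the micropylar endosperm, 5 lower and 20 neither, which is near the shares of all genes, 19.4% and 18.2%. Their median difference was 0.20 log2 beside -0.46 over all genes. On a scale that gives columns the same median it was -0.32, beside -0.73 over all genes. There 29 copies passed the filter, 3 of them higher and 5 lower. With a common sum it was 0.33 beside -0.45 over all genes, with 7 of 29 copies higher and 5 lower. With quantile normalisation it was 0.60 beside -0.36, with 5 of 27 copies higher and 4 lower. In the embryo proper 10 were higher, 5 lower and 16 neither, beside 20.1% and 17.2% of all genes. The embryo split was 7 and 7 with a common median, 11 and 4 with a common sum and 8 and 5 with quantile normalisation. No shares of all genes are given for these scales. Summed over copies, LEC1 was at 274 FPKM in the embryo proper, 35 in micropylar and 1 in chalazal endosperm. FUS3 was at 57, 0 and 0 and ABI3 at 79, 19 and 0 FPKM in these tissues. LEC2 had its larger sum in the micropylar endosperm, at 62 FPKM against 39 in embryo, with 0 listed for chalazal endosperm.

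The LEC2 copy BnaA07g08500D had 43 FPKM in micropylar endosperm, 14 in embryo and at most 1 elsewhere, and the copy BnaC07g10500D had 19 in each of these tissues. The ABI3 copy BnaC03g44820D had 18 FPKM in the micropylar endosperm and 29 in the embryo proper. Among the bZIP partners, bZIP53 summed to 223 FPKM in micropylar endosperm and 244 in chalazal proliferating tissue, where napin was at 1. Its copy BnaA07g19330D was listed at 0 in micropylar and at 43 in chalazal endosperm. bZIP25 was highest in the chalazal endosperm at 345 FPKM, and bZIP67 reached 2 at most. ABI5 was highest in the outer seed coat, at 28.

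Repressors had 31 copies, 27 of which passed the filter, with 9 higher, 0 lower and 18 neither in the micropylar endosperm, beside 19.4% and 18.2% of all genes. Their median difference was -0.16 log2, beside -0.46 over all genes. The group was led by MYB118, which in Arabidopsis represses maturation genes in the endosperm: it summed to 267 FPKM in micropylar, 8 in peripheral and 6 in chalazal endosperm, 5 in embryo and 0 in maternal tissue. Its copies BnaA02g29060D, BnaC02g37090D and BnaC04g32680D had 113, 94 and 60 FPKM in micropylar and 4, 1 and 1 in chalazal endosperm. MYB118 and the storage proteins were thus both highest in the micropylar endosperm, while the chalazal to micropylar proportion was lower for MYB118. The ASIL1 copy BnaA06g01360D, a trihelix repressor of embryonic genes, had 82 FPKM in the micropylar endosperm and 68 in the whole seed. The B3 repressors VAL1, VAL2 and VAL3 stayed at 20 FPKM or less in each column.

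**Figure D5:**
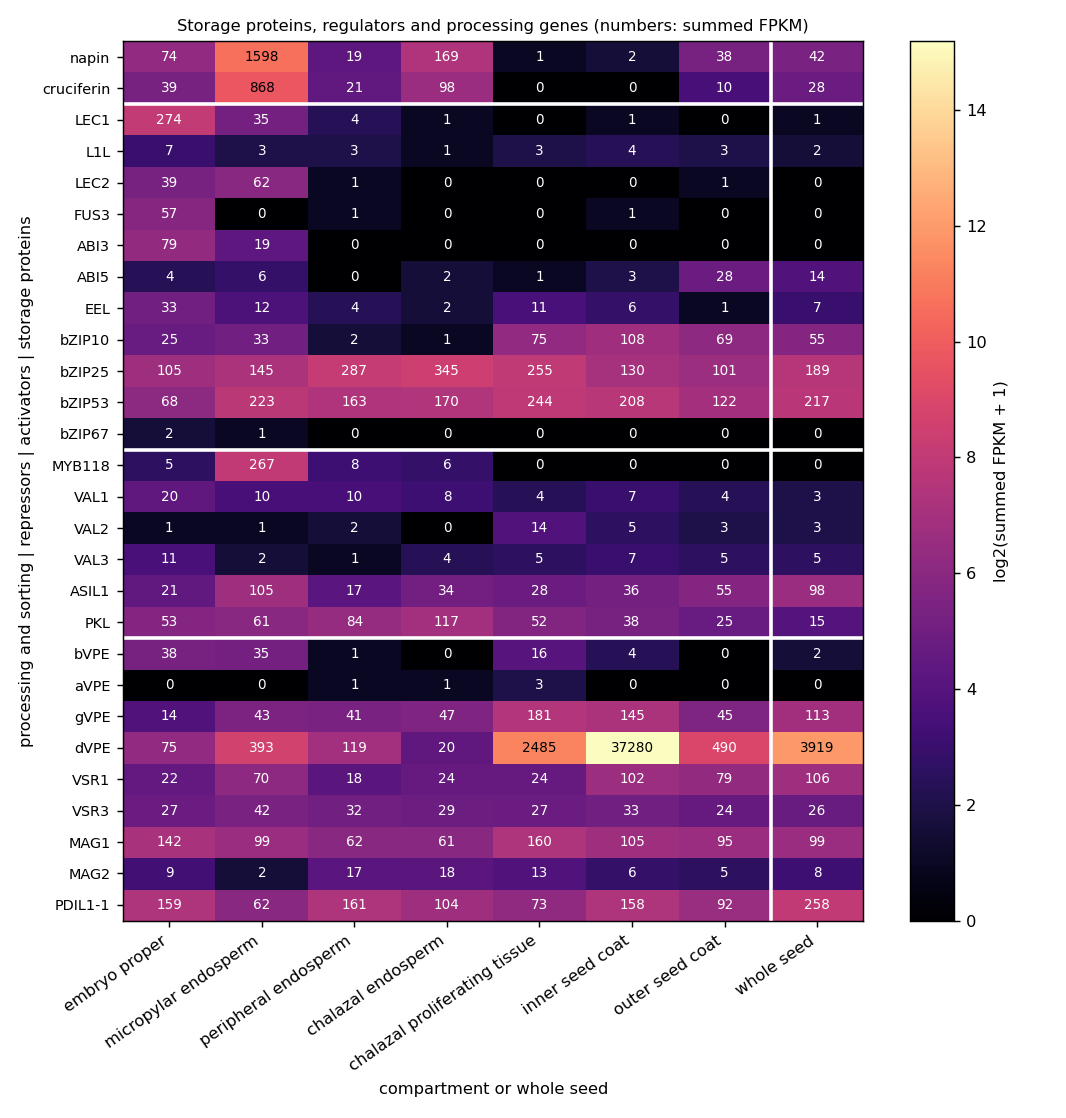
Summed FPKM (printed numbers, color as log2(summed FPKM + 1)) of the storage protein families, of known activators and repressors and of processing and sorting genes, in the 7 compartments and the whole seed. LEC1, FUS3 and ABI3 stand highest in the embryo proper, MYB118 in the micropylar endosperm beside the storage proteins, and delta VPE in the inner seed coat at 37280.

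Genes that sort and cut storage proteins had 40 copies, of which 28 passed the filter. In the micropylar endosperm 4 were higher, 4 lower and 20 neither, near the 19.4% and 18.2% of all genes. The split was 5 and 3 of 26 copies with a common sum and 4 and 5 of 27 with quantile normalisation. With a common median it was 3 and 14 of 28, where the median of all genes also moved from -0.46 to -0.73. No shares of all genes are given for these scales. Beta VPE, the vacuolar processing enzyme that cuts storage proteins in Arabidopsis seeds, summed to 38 FPKM in embryo, 35 in micropylar endosperm and 16 in chalazal proliferating tissue, with 0 listed for chalazal endosperm. Its copy BnaA09g10600D had 27 FPKM in the micropylar endosperm and 26 in the embryo proper. The sorting receptor copies BnaA03g38660D (VSR3) and BnaC08g24040D (VSR1) had 16 and 25 FPKM in the micropylar endosperm and 1 each in the embryo proper, and the VSR1 copy had 35 in the inner seed coat. The locus sums were less apart: VSR3 was at 42 FPKM in micropylar endosperm and 27 in embryo. VSR1 was at 70 and 22, and highest in the inner seed coat at 102. Delta VPE, which acts in cell death of the inner seed coat in Arabidopsis, was highest in the inner seed coat at 37280 FPKM against 393 in the micropylar endosperm, and its copy BnaC04g29170D had 240 against 1.

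Of 46 copies of other reserve genes, namely cupin, oleosin, caleosin, late embryogenesis and dehydrin genes, 33 passed the filter, with 26 higher, 0 lower and 7 neither in the micropylar endosperm, beside 19.4% and 18.2% of all genes. Their median difference was 3.45 log2, beside -0.46 over all genes. With a common sum 24 of 30 copies were higher, with a common median 19 of 28 and with quantile normalisation 23 of 30, each with 0 lower. Of chalazal endosperm calls, 4 were higher, 0 lower and 29 neither, beside 13.6% and 15.5% of all genes, and 0 were higher on the common-sum scale. Oleosins coat the oil bodies of the seed. The oleosin copies BnaA03g47170D, BnaA09g02110D, BnaA08g14540D and BnaC07g39370D had 120, 117, 100 and 77 FPKM in micropylar endosperm, 11, 7, 9 and 2 in chalazal endosperm and 12, 12, 8 and 2 in embryo. Vicilin-like PAP85, a globulin of another kind, was at 3 FPKM in embryo and 1 in micropylar endosperm. The cupin locus AT1G03890, next to CRB in Arabidopsis, was at 20 FPKM in micropylar and 2 in chalazal endosperm.

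Outside the members, the profiles most like that of summed napin were sought by Pearson correlation of log2(FPKM + 1) over the 7 compartments, among 19500 genes with an Arabidopsis match and at least 20 FPKM in a compartment. The closest was the oleosin copy BnaC09g27370D at 0.99, with 20 FPKM in micropylar endosperm, 4 in chalazal endosperm and 4 in embryo. It was followed by BnaA07g02000D (tubby-like protein 2) at 0.99, the oleosin copy BnaC02g37030D at 0.98, BnaA01g33430D (an ankyrin repeat protein) at 0.97 and BnaA03g53420D (a WD40 repeat protein) at 0.96. For cruciferin the closest were BnaA07g02000D at 0.99, BnaA08g26660D (a homolog of yeast SNF4) at 0.98, BnaA03g53420D at 0.98, BnaA01g33430D at 0.98 and BnaC08g32910D (a RED family protein) at 0.97. Levels of these single copies, at 20 to 47 FPKM in the micropylar endosperm, were far below the family sums. Single members had a median of 76 FPKM there for napin and 70 for cruciferin. Weaker members, such as BnaC01g19330D at 34, lay in or below the range of these genes. Each coefficient rests on 7 points. The coefficient does not measure the size of the differences, and several profiles were flatter than those of the members. In micropylar endosperm, chalazal endosperm and embryo, BnaA07g02000D had 36, 15 and 15 FPKM, BnaA01g33430D 22, 10 and 11 and BnaC08g32910D 25, 16 and 15. Steeper were BnaC02g37030D at 47, 6 and 3, BnaA03g53420D at 20, 5 and 2 and BnaA08g26660D at 24, 8 and 6. In all, 10 genes reached 0.95 for napin and 20 for cruciferin.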

How the data were processed

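Per the labels, total RNA was extracted with an Ambion reagent and libraries were made with a NuGen Ultralow kit; per the submitters' processing notes Trimmomatic 0.36, HISAT2 and Cufflinks were used, and roles, settings, genome build and the way libraries were combined are not given in the sources used here. Laser microdissection is read from an abbreviation in the deposited table's name. The unit is a score: FPKM that the authors rounded to whole numbers (100% of values) and deposited as 1 column per group. The heading for whole seed gives no unit, and its values were treated as FPKM. Gene length, in bases, is a deposited column of other unit. Another 1 column, headed gCZSC, could be tied to no labelled sample and was left unused. Of 101040 genes, 593 had no compartment values and were left out. Deposited starts count from 0 (17707 genes have a length of end minus start, and 0 have 1 base more), so 1 was added to them.

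Differences were computed with a pseudocount of 1 for the 54278 genes at 1 FPKM or more in at least 2 of 8 columns. Whole seed, which the labels place on the maternal side, was kept out of both sides. The planned limma fits, a replicate block and the omission of replicates could not be run on 1 column per group. Members and lists were chosen with earlier results of these data known. Named genes were up to 3 copies per locus in full with others that reach 5 FPKM, 4 copies per list with the largest micropylar difference past the rule of size, and 5 genes of most similar profile for each family; neighbours of clusters and marker genes were named beside these, after their values were seen. The code was tested on simulated data. Protein and promoter sequences were not used here. Computations used pandas 2.3.3 and numpy 2.4.6 under Python 3.11.15, and plots were drawn with matplotlib 3.10.9.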

Additional observations from a re-analysis of the deposited data

How the results depend on the processing

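No paired analysis was possible because the table gives 1 combined column per group, and no replicate could be left out. That napin and cruciferin sums were higher in the micropylar endosperm than in the other 6, than in the chalazal endosperm, the embryo proper or the peripheral endosperm, and on the filial than the maternal side, held under each alternative that could be run for it. Over all comparisons of sums, 194 values kept direction and side of the rule of size, 11 no longer passed it, 4 newly passed it and 7 changed direction. Of the counts of copies, 213 stayed within 1.5 times and 33 did not. These counts are given without the shares of all genes under the same setting. With columns scaled to a common sum or a common median, 21 copies in place of 22 passed the filter. The cause was not tested unless named.

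Scaling columns to a common sum that leaves out ribosomal RNA and organelle genes moved the median of all genes by -0.47 for the chalazal endosperm and by 0.55 for the outer seed coat against the others, and by -0.46 for chalazal endosperm against embryo. On that scale the difference of chalazal endosperm from embryo proper turned from 1.18 to -0.22 for napin and from 1.31 to -0.0791 for cruciferin, with 5 copies higher and 7 lower in place of 8 and 2. Against the other 6, the chalazal endosperm then had 7 copies higher and 2 lower, and the outer seed coat 3 higher. The chalazal endosperm was above the peripheral endosperm for 8 copies in place of 15, and the embryo proper stood above the peripheral endosperm by 1.42 for cruciferin in place of 0.86, with 0 copies lower. A common median moved the median of all genes by -0.86 for micropylar against peripheral endosperm. With it, the embryo proper against the others was at 0.79 for napin and 0.98 for cruciferin, in place of 1.19 and 1.27, with 5 copies higher, the peripheral endosperm was at -0.52 for napin in place of -1.04, the outer seed coat had 2 copies higher, and 1 copy was lower in the chalazal endosperm than in the embryo. Quantile normalisation gave 2 copies higher in the outer seed coat and 1 lower in the chalazal endosperm than in the embryo.

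Without the most abundant copy of each locus, cruciferin in the embryo proper turned to -0.0921 and in the peripheral endosperm from 0.26 to -0.52, and the napin difference of chalazal endosperm from embryo fell short at 0.67. The A share of cruciferin and napin then was 81.0% and 68.7% in the micropylar and 81.0% and 64.9% in the chalazal endosperm, and 0% for cruciferin in the embryo proper. With a pseudocount of 0.1, the peripheral endosperm was at -0.86 for napin and 1.34 for cruciferin, with 1 copy higher and 2 lower, and the outer seed coat turned from -0.90 to 0.10 for cruciferin, with 3 copies higher. A 4-fold rule, stricter by construction, was not reached in the embryo proper by napin at 1.19 or cruciferin at 1.27, with 2 copies higher and 3 lower, in the peripheral endosperm by napin at -1.04, with 1 copy lower, or between chalazal endosperm and embryo by napin at 1.18 and cruciferin at 1.31, nor between embryo proper and peripheral endosperm by napin at 1.91; the chalazal endosperm had 7 copies higher and 0 lower, and the outer seed coat 7 lower.

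Without the micropylar column, the peripheral endosperm turned to 0.0202 for napin and reached 1.38 for cruciferin, with 1 copy higher and 0 lower, and the outer seed coat reached 1.18 for napin and turned to 0.18 for cruciferin, with 3 copies higher and 4 lower. The embryo proper then had 2 copies lower, the chalazal endosperm 0, and the chalazal proliferating tissue and inner seed coat 7 each. Weighting by gene length gave napin to cruciferin ratios of 0.671, 0.620 and 0.679 in the micropylar endosperm, chalazal endosperm and embryo proper, as the shorter napin genes imply. With no minimum level, 1 copy was lower in the chalazal and 6 in the embryo proper than in the peripheral endosperm. By Spearman in place of Pearson correlation, 1 of the 5 genes most like napin and 1 of the 5 most like cruciferin were shared. Depth is unknown, and rounding to whole FPKM limits all low values.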
